A study of Mus musculus with 10 samples.

Results

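Methylation of cytosine in DNA is written, copied, removed and read by a small set of nuclear proteins, and 9 of their genes are described here across 10 bulk RNA-seq libraries of mouse germinal center B cells. The genes are Dnmt1, Uhrf1 and Uhrf2, Dnmt3a and Dnmt3b, Tet1, Tet2 and Tet3, and Mbd2. They were taken by symbol, for their function, from a table of 55421 genes. Earlier results of these data were known when they were chosen. All 9 were in the table, and all 9 passed the filter on low counts that left 16596 genes for testing.

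The libraries were made from spleens of C57BL/6 mice aged 8 to 10 weeks, 10 days after immunization, with germinal center B cells enriched on beads for the lectin PNA and with ribosomal RNA depleted. Mice labelled Pbrm1+/+ (called WT) gave 3 libraries of a fraction labelled CB and 3 of a fraction labelled CC. Mice labelled Pbrm1-/- (called HOMO) gave 2 of each. Pbrm1 encodes a subunit of the PBAF chromatin remodelling complex, and the study compared the genotypes. What the letters CB and CC stand for is not explained in the labels. How the fractions were separated, which Pbrm1 allele was used and in which cells it acts are likewise not given. The names of the count columns hold the letters AID, also without explanation. HOMO libraries are numbered 2 and 3, as in the count table. Whether the libraries of a group were made from different animals is not stated, and p-values therefore reflect only the spread among these libraries, which may be technical.

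DNMT1 is the maintenance methyltransferase: it copies methylation onto the new strand after replication, guided by UHRF1, which binds DNA methylated on the parent strand alone. UHRF2 is a relative of UHRF1. DNMT3A and DNMT3B methylate DNA that carried no mark before. The TET enzymes oxidize methylcytosine, a first step of its removal, and MBD2 binds methylated DNA and brings in the NuRD repressor complex. In germinal centers B cells divide rapidly and mutate their antibody genes in the dark zone, and are selected for antigen binding in the light zone; DNMT3A and TET2 are among the proteins mutated in human blood cancers, and TET2 in B cell lymphoma too.

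Library totals ranged from 9954006 to 67625110 counts. CPM are counts per 1000000 counts of the library, scaled with TMM factors, and adjusted p-values are those of edgeR's quasi-likelihood test with Benjamini-Hochberg adjustment over all genes tested, with a threshold of 0.05. Pbrm1 itself had 319, 309 and 312 CPM in WT CB against 178 and 164 in HOMO CB, a log2 change of -0.88 ± 0.09 (SE; adjusted p = 0.00954). In CC it was 239, 239 and 250 CPM against 152 and 150, a change of -0.68 ± 0.09 that did not pass (adjusted p = 0.0564). Of the marker lists, all 5 dark zone genes were lower and all 6 light zone genes higher in WT CC than in WT CB. For the G2 and M phases, 14 of 14 genes were lower in WT CC and 13 of 14 in HOMO CC. Over all genes tested 12.3% were lower and 11.6% higher in WT CC, and 2.98% were lower in HOMO CC. Both WT libraries numbered 3 stood apart from the other WT libraries, and so did WT CC libraries 1 and 2. The rank correlation of a gene's GC content with its deviation from its mean level (Spearman, 8907 genes) was -0.47 in WT CB library 3, 0.151 in WT CC library 3, 0.154 to 0.562 in the other WT libraries and -0.643 to -0.184 in the HOMO libraries. The summed level of 12 macrophage genes was 910 and 220 CPM in WT CC libraries 1 and 2, 54.8 in WT CC library 3, 11.5 to 22.1 in WT CB, 11.9 to 25.9 in HOMO CB and 30.6 to 35.7 in HOMO CC. C1qc and Mertk were at 0 in HOMO CB library 2, C1qb was at 0 in HOMO CB library 3, and no macrophage gene of the list was at 0 in the others. The sum of 8 neutrophil genes was 160 and 129 CPM in HOMO CB and CC library 2, 7.77 and 14.6 in HOMO CB and CC library 3, and 0 to 15 in WT. The sum of 6 resting B cell genes was 537 to 575 CPM in WT CB and 1038 to 1054 in WT CC. In HOMO it was 637 to 664 in CB and 1178 to 1282 in CC. The part of other cells in the levels below was not tested.

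The promoter sequences of these genes differ widely in CpG, the dinucleotide that all of these proteins write, remove or read. The windows below are the 250 bases before a RefSeq transcription start on GRCm38.p6, 5′ to 3′ on the strand of the gene, with every CG in capitals. Dnmt3a and Tet2 are shown because they had the highest CC over CB ratios of the members that passed, and Dnmt1 and Uhrf1 because they form the copying pair. Dnmt3a is read from chr12:3806730-3806979 on the plus strand, Tet2 from chr3:133544391-133544640 on the minus strand, Dnmt1 from chr9:20952980-20953229 on the minus strand and Uhrf1 from chr17:56304063-56304312 on the plus strand.
Dnmt3a: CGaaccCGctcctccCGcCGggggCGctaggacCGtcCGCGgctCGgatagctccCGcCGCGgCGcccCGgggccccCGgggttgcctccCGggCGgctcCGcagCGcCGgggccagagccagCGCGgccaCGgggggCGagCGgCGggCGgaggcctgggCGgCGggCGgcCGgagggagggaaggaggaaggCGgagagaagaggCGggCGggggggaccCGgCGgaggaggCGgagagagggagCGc
Tet2: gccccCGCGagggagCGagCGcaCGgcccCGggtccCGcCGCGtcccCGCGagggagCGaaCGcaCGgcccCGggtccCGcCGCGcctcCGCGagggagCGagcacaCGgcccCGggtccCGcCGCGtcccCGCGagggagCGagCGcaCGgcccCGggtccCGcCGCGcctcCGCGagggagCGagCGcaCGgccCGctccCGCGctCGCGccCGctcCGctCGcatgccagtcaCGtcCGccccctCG
Dnmt1: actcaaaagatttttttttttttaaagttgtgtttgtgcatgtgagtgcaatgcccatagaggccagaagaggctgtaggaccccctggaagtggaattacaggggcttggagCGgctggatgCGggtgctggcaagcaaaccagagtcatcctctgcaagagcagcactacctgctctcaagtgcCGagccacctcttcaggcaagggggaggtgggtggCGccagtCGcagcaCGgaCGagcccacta
Uhrf1: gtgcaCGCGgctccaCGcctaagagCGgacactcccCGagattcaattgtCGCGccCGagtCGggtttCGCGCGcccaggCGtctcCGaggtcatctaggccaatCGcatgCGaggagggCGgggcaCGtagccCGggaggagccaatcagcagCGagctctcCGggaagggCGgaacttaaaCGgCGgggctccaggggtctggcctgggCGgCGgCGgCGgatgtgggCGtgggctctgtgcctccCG

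The Tet2 window held 51 CG, Dnmt3a 38, Uhrf1 30 and Dnmt1 7. Over 32851 such windows the median was 6, with quartiles of 2 and 16, so the Dnmt1 window shown lay near the median and the other 3 above the upper quartile. This order holds for the starts chosen. The 250 bases before a Dnmt1 start 356 bases away held 26 CG, and those before a further Dnmt1 start held 2. For Dnmt3a, the 250 bases before other starts held 40 and 15 CG, the latter below the upper quartile. The window of another Uhrf1 start held 10. Windows of the same length held 23 CG for Uhrf2 and 21 for Dnmt3b. The letters TTTNNCGC, used as an E2F motif, were searched on both strands and occurred in 4.28% of all windows. In the window chosen for each member they occurred once, as TTTCGCGC, beginning 185 bases before the Uhrf1 start, and the window of the other Uhrf1 start held TTTCTCGC, 56 bases before it. For Tet1 and Tet3 only 88 and 76 bases were searched. Their starts lay 11794 and 14714 bases from the nearest start of a transcript marked as principal in GENCODE M21. A match describes letters and says nothing of binding, and no methylation was measured in this series.

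Per kb of exon, Dnmt1, Uhrf1 and Mbd2 were above the other 6 genes in every library. Level per length is TMM-scaled CPM divided by the gene's summed exon length in kb, and only on this scale are genes compared with each other. Dnmt1, Uhrf1 and Mbd2 lay between 66.1 and 189 CPM per kb over the 10 libraries. Tet3 and Uhrf2 lay between 9.14 and 26.9. Dnmt3a, Tet2 and Dnmt3b lay between 0.918 and 3.98, and Tet1 between 0.0368 and 0.173. In WT CB the order by mean was Mbd2 at 173 ± 26 (SD, n = 3), Dnmt1 at 147 ± 20.9, Uhrf1 at 107 ± 15.5, Tet3 at 14.7 ± 1.9, Uhrf2 at 12.3 ± 1.26, Tet2 at 1.28 ± 0.222, Dnmt3a at 1.12 ± 0.036, Dnmt3b at 0.953 ± 0.0313 and Tet1 at 0.0642 ± 0.0156. The libraries of Mbd2 and Dnmt1 overlapped there, and so did those of Tet3 and Uhrf2 and those of Tet2 and Dnmt3a. In WT CC the order was Dnmt1 at 125 ± 15.3, Uhrf1 at 109 ± 7.29, Mbd2 at 81.8 ± 12.6, Tet3 at 24.6 ± 3.3, Uhrf2 at 10.4 ± 1.19, Dnmt3a at 3.34 ± 0.613, Tet2 at 2.69 ± 0.414, Dnmt3b at 1.31 ± 0.271 and Tet1 at 0.11 ± 0.0555. Dnmt1 and Uhrf1 overlapped in WT CC, as did Dnmt3a and Tet2. The exon length sums over all transcripts of a gene, so this order depends on which of them the cells use.

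**Figure D1:**
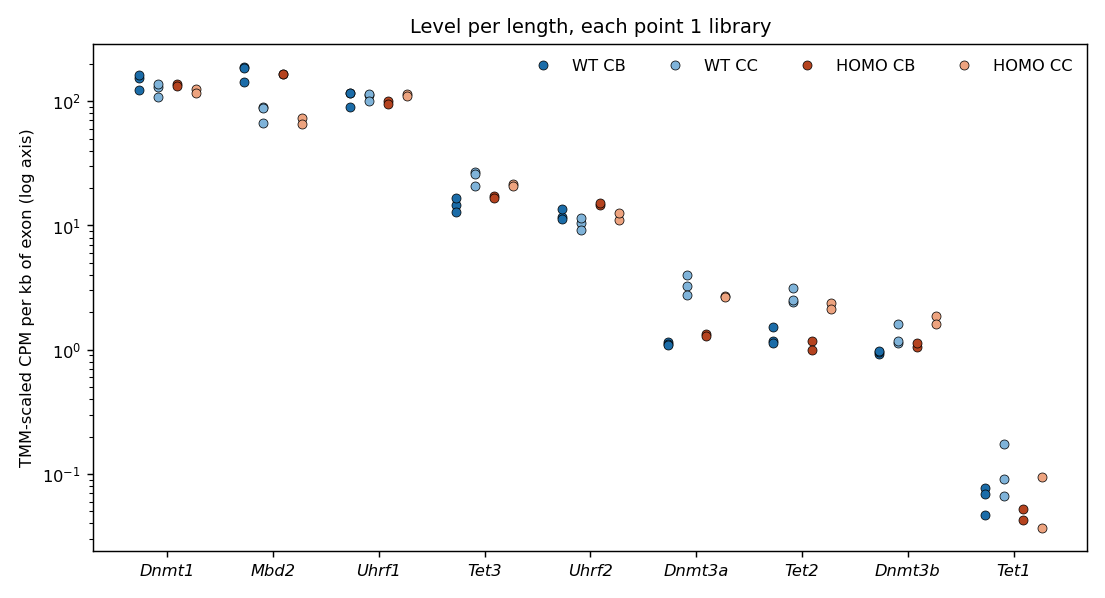
Level per exon length (TMM-scaled CPM per kb, log axis) of the 9 genes, each point 1 library, coloured by group. The genes fall into a high set of Dnmt1, Mbd2 and Uhrf1 between 66.1 and 189, Tet3 and Uhrf2 between 9.14 and 26.9, a low set of Dnmt3a, Tet2 and Dnmt3b, and Tet1 at 0.173 or lower.

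Between the fractions of WT mice, 3 of the 9 genes were higher in CC and 1 was lower. Dnmt3a, Tet2 and Tet3 were higher, by 2.99-fold, 2.09-fold and 1.67-fold, and Mbd2 was 2.11-fold lower. Over all genes tested 11.6% were called higher and 12.3% lower. In HOMO mice Dnmt3a was 2.02-fold and Tet2 2.10-fold higher in CC and Mbd2 2.37-fold lower, 2 members up and 1 down, against 2.46% and 2.98% of all genes. The median log2 change of the 9 genes was 0.45 in WT and 0.32 in HOMO, beside 0.01 and -0.01 over all genes. The libraries are bulk, so fewer cells of a type and less RNA per cell cannot be told apart in any of these changes.

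The change of the maintenance methyltransferase gene between the fractions was small, and whether it passed in WT depended on the fit. Dnmt1 (ENSMUSG00000004099.16, minus strand of chromosome 9, 20907209 to 20959888 on mm10) was measured in WT CB libraries 1 to 3 at 1145, 1202 and 911 CPM, and in WT CC at 956, 1018 and 799. In HOMO it was 1025 and 974 CPM in CB and 926 and 853 in CC. Each WT CC library was below the CB library of its number, but the WT groups overlapped, since CB library 3 was below CC libraries 1 and 2. The log2 change was -0.23 ± 0.12 (SE) in WT and -0.17 ± 0.15 in HOMO (adjusted p = 0.199 and 0.626). With the WT number as a fixed block, which takes out the difference between WT numbers, Dnmt1 passed as lower in WT CC, with the same change of -0.23 and an adjusted p of 0.0148. In limma-voom with a random block for that number it did not (-0.23, adjusted p = 0.0727). Dnmt1 passed as lower when WT CB library 3 was left out (-0.34, adjusted p = 0.0234), when both WT libraries numbered 3 were (-0.25, adjusted p = 0.0078) and with an offset for GC content (-0.33, adjusted p = 0.0229). Values that did not pass were -0.44 without WT CC libraries 1 and 2 (adjusted p = 0.157) and -0.12 without WT CC library 3 (adjusted p = 0.444).

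Uhrf1, the partner that brings DNMT1 to newly replicated DNA, was at nearly the same level in both fractions. Uhrf1 (ENSMUSG00000001228.14, plus strand of chromosome 17, 56303321 to 56323486) had 497, 492 and 380 CPM in WT CB, and 481, 483 and 428 in WT CC. In HOMO it was 431 and 405 CPM in CB and 487 and 466 in CC. WT CB library 3 was the lowest of all 10 libraries, the WT groups overlapped, and both HOMO CC libraries were above both HOMO CB libraries. The Uhrf1 log2 change was 0.02 ± 0.11 in WT and 0.19 ± 0.14 in HOMO (adjusted p = 0.91 and 0.515). Without both WT libraries numbered 3, the HOMO change passed at the same size (0.19, adjusted p = 0.0313). With an offset for GC content it was 0.095 (adjusted p = 0.697).

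Of the pairs of members, Dnmt1 and Uhrf1 had the smallest root mean square difference over the 10 libraries. It was 0.16 in log2 CPM after each gene's mean was removed. Both genes varied little, with standard deviations of 0.18 for Dnmt1 and 0.13 for Uhrf1. A difference of this size therefore does not show that they rose and fell together. Within each library, the ratio of Uhrf1 to Dnmt1 per kb was 0.71 to 0.752 in WT CB and 0.721 to 0.729 in HOMO CB. It was 0.822 to 0.928 in WT CC and 0.912 to 0.946 in HOMO CC. All 5 CC libraries were above all 5 CB libraries, a description with no test. Of 16 S phase genes, which act in DNA replication, 6 were lower in WT CC, beside 12.3% of all genes, with a median log2 change of -0.23. In HOMO 0 of the 16 were called, and the median was -0.02. The part of cell cycle phase in the levels of Dnmt1 and Uhrf1 was not tested.

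Uhrf2 (ENSMUSG00000024817.13, plus strand of chromosome 19, 30030513 to 30093722) had 101, 97.3 and 118 CPM in WT CB, and 90, 78.5 and 99 in WT CC. HOMO CB gave 126 and 130 CPM and HOMO CC 94.5 and 107. The WT groups overlapped, while both HOMO CC libraries were below both HOMO CB libraries. For Uhrf2 the log2 change was -0.24 ± 0.11 in WT and -0.34 ± 0.14 in HOMO (adjusted p = 0.141 and 0.195). Uhrf2 also passed as lower with the WT number as a fixed block, in WT (-0.24, adjusted p = 0.0208) and in HOMO (-0.34, adjusted p = 0.0229). In limma-voom with a random block for the WT number it passed in WT (-0.25, adjusted p = 0.0449) and not in HOMO (-0.35, adjusted p = 0.164). With an offset for GC content the change was -0.15 in WT and -0.22 in HOMO (adjusted p = 0.201 and 0.263), and without WT CC libraries 1 and 2 it was -0.084 in WT (adjusted p = 0.758). Without both WT libraries numbered 3 it passed in WT (-0.23, adjusted p = 0.0261) and in HOMO (-0.34, adjusted p = 0.00612). The fit with the fixed block thus called 3 members lower in WT, where it called 18.4% of all genes lower, and 2 in HOMO, where it called 7.53%.

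**Figure D2:**
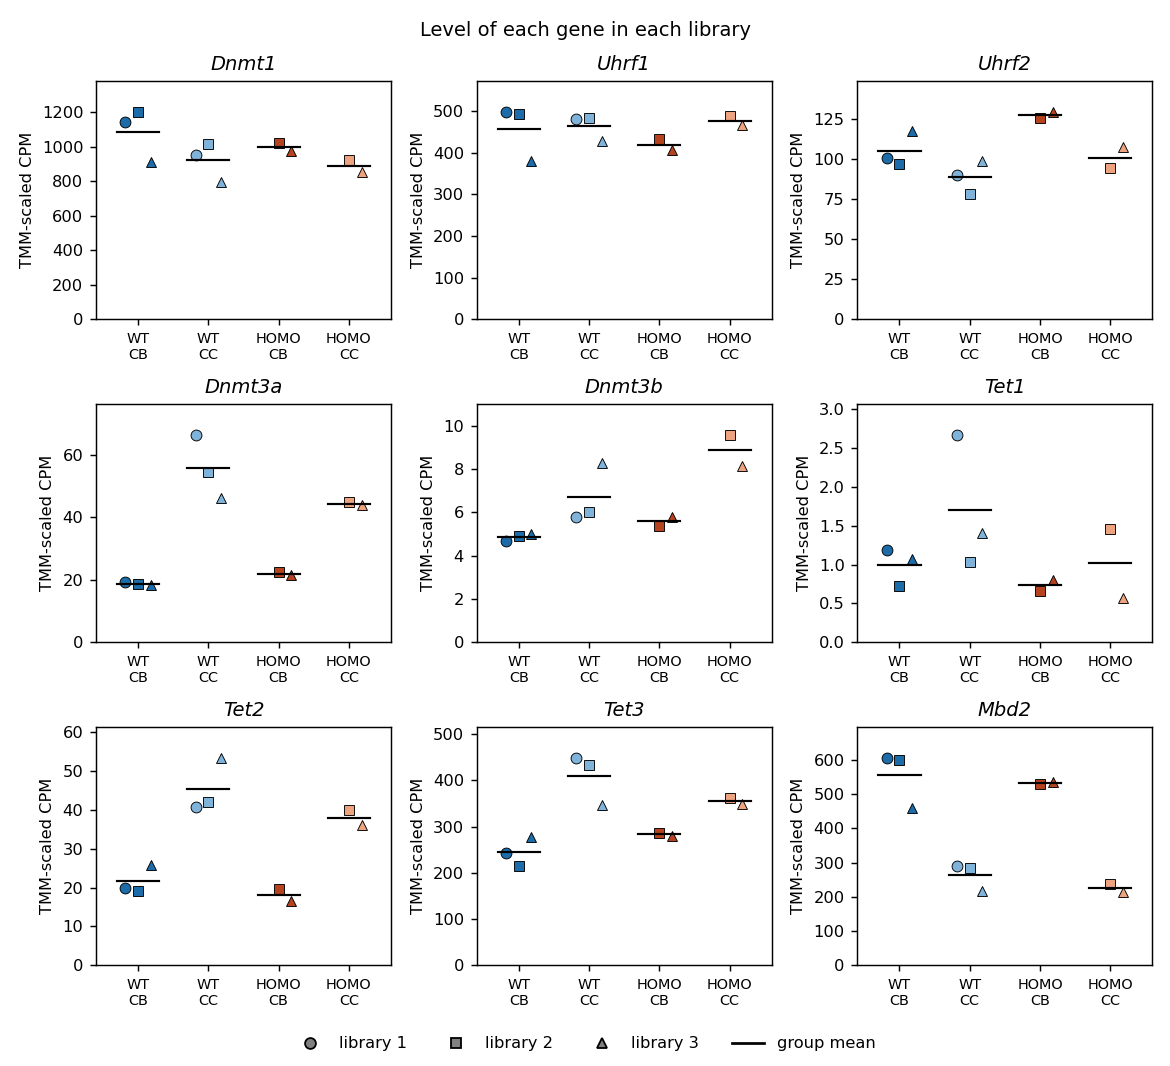
TMM-scaled CPM of each of the 9 genes in each library, by group, with library numbers as symbols and the group mean as a line. Dnmt3a, Tet2 and Tet3 sit higher in every CC library than in any CB library and Mbd2 lower. The WT groups of Dnmt1, Uhrf1, Uhrf2 and Tet1 overlap. The share of all genes without overlap was not counted.

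The de novo methyltransferase gene Dnmt3a had the highest CC over CB ratio of the 9 genes in WT. Dnmt3a (ENSMUSG00000020661.15, plus strand of chromosome 12, 3806007 to 3914443) had 19.3, 18.5 and 18.1 CPM in WT CB, against 66.3, 54.5 and 46 in WT CC. HOMO CB gave 22.3 and 21.6 CPM and HOMO CC 44.8 and 43.9. The antisense gene Dnmt3aos shares 133 exon bases with it and had 3 counts over the 10 libraries, beside 8797 for Dnmt3a. No CC library overlapped with a CB library, and within WT the CC libraries spread over a wider range than the CB libraries. The log2 change was 1.58 ± 0.13 in WT (SE; adjusted p = 3.23e-05) and 1.02 ± 0.16 in HOMO (adjusted p = 0.00363). By mean the groups ran from WT CB at 18.6 ± 0.599 (SD, n = 3), through HOMO CB at 21.9 ± 0.505 (n = 2) and HOMO CC at 44.4 ± 0.609 (n = 2), to WT CC at 55.6 ± 10.2 (n = 3). The 2 CB groups did not differ beyond the threshold, nor did the 2 CC groups.

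WT CC libraries 1, 2 and 3, in the order given above for Dnmt3a, had macrophage sums of 910, 220 and 54.8 CPM. In the same order, 22.7%, 19% and 13.5% of their counts lay in genes at the ribosomal RNA locus, beside 8.73% to 11.9% in the other 7 libraries. Dnmt3a was higher in WT CC when WT CC libraries 1 and 2 were left out, with a log2 change of 1.31. It passed in all 22 alternatives run for CC against CB in WT, where the change ranged from 1.31 to 1.71. In HOMO, where the macrophage sums were under 36 CPM in all 4 libraries, the change was the 1.02 given above. Without HOMO CB library 3 it was 0.99 and missed the threshold (adjusted p = 0.0577). The part of macrophage transcripts in the level of Dnmt3a was not tested.

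Dnmt3b, the other de novo enzyme, was measured at low levels. Dnmt3b (ENSMUSG00000027478.15, plus strand of chromosome 2, 153649450 to 153687730) gave 4.69, 4.91 and 5 CPM in WT CB and 5.79, 6.01 and 8.29 in WT CC, from 116 to 321 counts per library. HOMO CB gave 5.38 and 5.79 CPM and HOMO CC 9.58 and 8.16. In both genotypes every CC library was above every CB library, but the log2 changes of 0.45 ± 0.19 in WT and 0.67 ± 0.24 in HOMO did not pass (adjusted p = 0.116 and 0.14). The HOMO change passed when only the HOMO libraries were fitted (0.69, adjusted p = 0.0128) and without both WT libraries numbered 3 (0.67, adjusted p = 0.0254). The WT change was 0.29 without WT CC library 3 (adjusted p = 0.251) and 0.77 without WT CC libraries 1 and 2 (adjusted p = 0.0799).

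Within the summed level per kb of Dnmt1, Dnmt3a and Dnmt3b, Dnmt3a made up 0.673% to 0.868% in WT CB and 0.948% to 0.965% in HOMO CB. It made up 2.3% to 2.96% in WT CC and 2.07% to 2.2% in HOMO CC. The de novo genes were thus a small share of the summed Dnmt level in all 10 libraries, and the share of Dnmt3a was higher in each CC library than in any CB library. These shares are descriptions of the libraries above and were not tested.

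**Figure D3:**
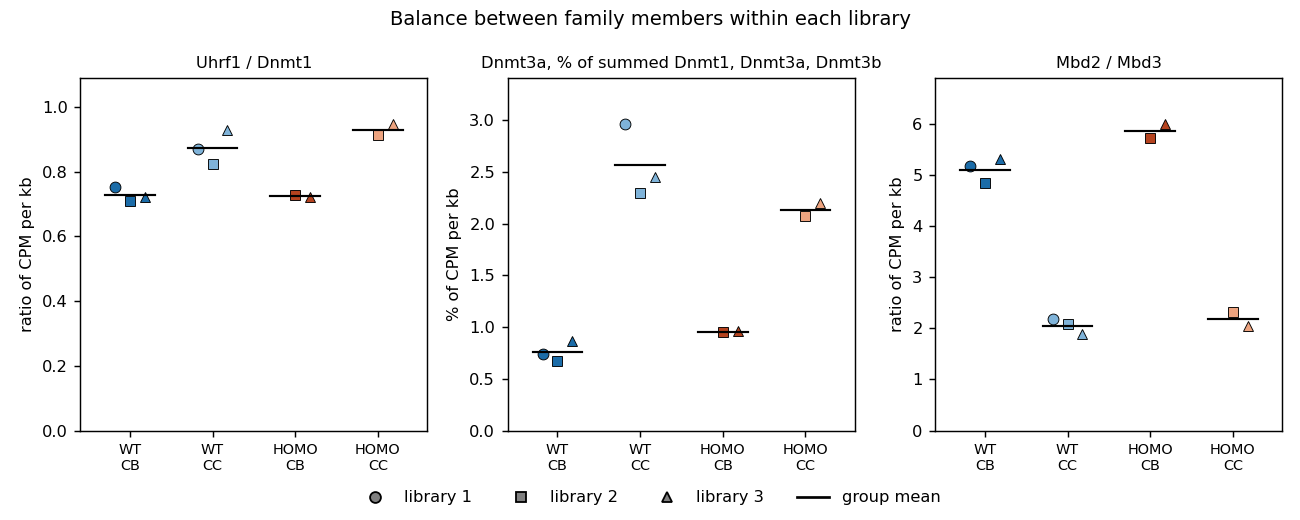
Ratio of Uhrf1 to Dnmt1, share of Dnmt3a in the summed Dnmt genes and ratio of Mbd2 to Mbd3, all from CPM per kb, in each library, with the group mean as a line. In all 3 panels the 5 CC libraries and the 5 CB libraries do not overlap: the first 2 measures are higher in CC and the ratio of Mbd2 to Mbd3 is lower.

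Tet3 made up most of the TET level. In each library it accounted for 86.4% to 94.2% of the summed CPM per kb of the 3 genes. Tet3 (ENSMUSG00000034832.15, minus strand of chromosome 6, 83362373 to 83459084) had 243, 215 and 278 CPM in WT CB, against 449, 434 and 347 in WT CC. HOMO CB gave 287 and 280 CPM and HOMO CC 361 and 348. In both genotypes the CC libraries were above the CB libraries without overlap, and WT CC libraries 1 and 2 were above the rest. In log2 terms Tet3 was higher by 0.74 ± 0.12 in WT (adjusted p = 0.00167) and 0.32 ± 0.14 in HOMO (adjusted p = 0.251).

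The Tet3 change in WT depended on the libraries used. Without WT CC libraries 1 and 2, the pair with the highest macrophage sums, it was 0.51 and missed the threshold (adjusted p = 0.0759). With all 4 libraries of WT numbers 1 and 2 left out it was 0.29 (adjusted p = 0.00822), less than the main value by more than 1.5 times. The part of macrophage transcripts in the level of Tet3 was not tested. In HOMO, Tet3 passed as higher in CC when only the HOMO libraries were fitted, with a log2 change of 0.35 (adjusted p = 0.000189), or when both WT libraries numbered 3 were left out, with a change of 0.33 (adjusted p = 0.00283). With an offset for GC content it was 0.19 (adjusted p = 0.587). The summed TET level was 14 to 18.3 CPM per kb in WT CB, 17.8 to 18.4 in HOMO CB, 24 to 29.5 in WT CC and 23 to 24.1 in HOMO CC.

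Tet2 rose in CC by nearly the same amount in both genotypes. Tet2 (ENSMUSG00000040943.12, minus strand of chromosome 3, 133463679 to 133545139) had 19.9, 19 and 25.9 CPM in WT CB, against 40.8, 42.1 and 53.4 in WT CC. HOMO CB gave 19.7 and 16.6 CPM and HOMO CC 39.9 and 36.1. The lowest CC library, a HOMO one, was above the highest CB library, WT library 3, and WT library 3 was the highest of its group in both fractions. The log2 change was 1.06 ± 0.15 in WT (adjusted p = 0.000757) and 1.07 ± 0.19 in HOMO (adjusted p = 0.00691). In WT, Tet2 passed in all 22 alternatives, with changes from 0.95 to 1.31. In HOMO it missed the threshold without CB library 3 (0.95, adjusted p = 0.12) and without CC library 2 (0.98, adjusted p = 0.0935). The part of macrophage transcripts in the level of Tet2 was not tested.

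Tet1 was near the limit of detection. Tet1 (ENSMUSG00000047146.17, minus strand of chromosome 10, 62804570 to 62908996) had 6 to 69 counts per library, or 0.569 to 2.67 CPM. The highest value was in WT CC library 1 and the lowest in HOMO CC library 3, and CB and CC libraries overlapped in both genotypes. The log2 changes of 0.79 ± 0.47 in WT and 0.50 ± 0.60 in HOMO had wide errors and did not pass (adjusted p = 0.258 and 0.735), so no difference was detectable at this depth. The WT change was 0.29 without WT CC library 1 (adjusted p = 0.735) and 0.50 without WT CC libraries 1 and 2 (adjusted p = 0.656).

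Mbd2, the methyl-DNA reader, was the only member that the main fit called lower in CC, in both genotypes. Mbd2 (ENSMUSG00000024513.16, plus strand of chromosome 18, 70568189 to 70626131) had 606, 600 and 458 CPM in WT CB, against 289, 283 and 216 in WT CC. HOMO CB gave 530 and 536 CPM and HOMO CC 237 and 213. All CB libraries were above all CC libraries in both genotypes, and WT library 3 was the lowest of its group in each fraction. The log2 change was -1.08 ± 0.14 in WT (adjusted p = 0.000378) and -1.25 ± 0.17 in HOMO (adjusted p = 0.00182). Mbd2 passed as lower in all 22 alternatives in WT, from -1.35 to -0.94, and in all 22 in HOMO, from -1.34 to -1.18.

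Mbd3, the closest relative of Mbd2 and the other methyl-binding-domain subunit of NuRD, did not fall with it. Mbd3 was at 67.5 ± 12.4 CPM (SD, n = 3) in WT CB and 78.9 ± 6.92 in WT CC, a log2 change of 0.23 that did not pass (adjusted p = 0.235). In HOMO it was 56.3 ± 1.4 (n = 2) and 63.7 ± 0.758, a change of 0.18 (adjusted p = 0.63). The ratio of Mbd2 to Mbd3 per kb was 4.84 to 5.31 in WT CB and 5.72 to 5.99 in HOMO CB, against 1.88 to 2.18 in WT CC and 2.04 to 2.32 in HOMO CC. Mbd2 was thus above Mbd3 in all 10 libraries, by a smaller factor in CC. Mbd3 was picked for this ratio after its values were seen.

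**Figure D4:**
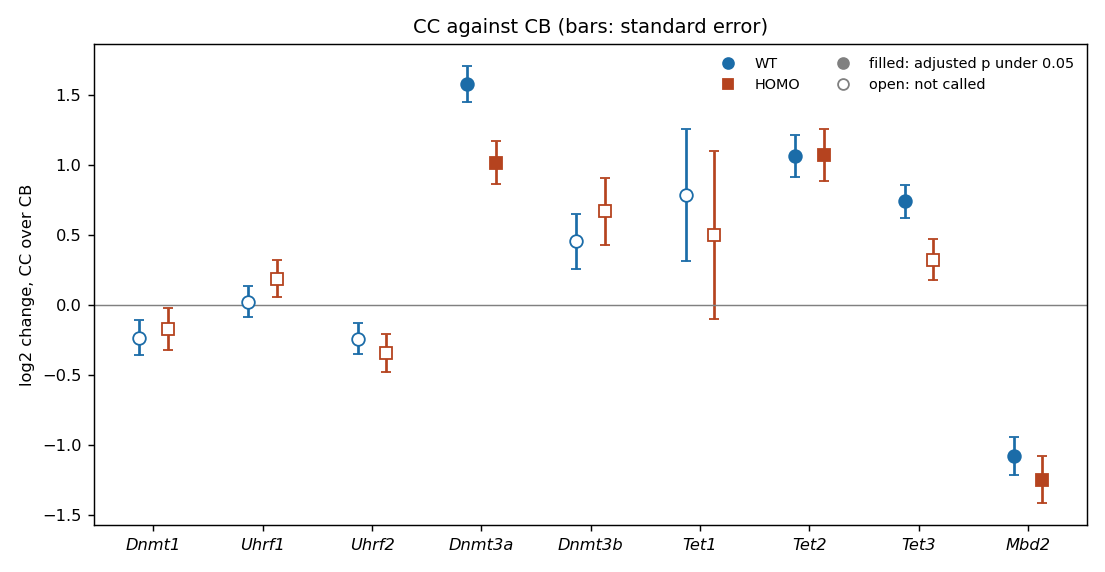
Log2 change of CC over CB for the 9 genes in WT (circles) and HOMO (squares), with standard errors as bars; filled symbols passed the adjusted p threshold of 0.05. Dnmt3a, Tet2 and Mbd2 are filled in both genotypes and Tet3 in WT only, with a test of the difference given in the text.

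Between the genotypes, none of the 9 genes passed in either fraction. In CB, edgeR called 0 of 9 at an adjusted p under 0.05, where it called 0.0241% of all genes, 1 member had an unadjusted p under 0.05, as did 12.5% of all genes, and DESeq2 called 0 members and 1.68% of all genes. In CC edgeR called 0 of 9, beside 0% of all genes, with 1 member and 18.9% of all genes under 0.05 unadjusted, and 0 members and 4.93% of all genes called by DESeq2. The median log2 change of the members, HOMO over WT, was -0.06 in CB and -0.21 in CC, beside -0.04 and -0.03 over all genes. These 2 comparisons share no libraries with each other, but each shares its libraries with the comparisons of fractions.

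In CB the member with an unadjusted p under 0.05 was Uhrf2, with both HOMO libraries above all 3 WT libraries and a log2 change of 0.28 ± 0.12 (adjusted p = 0.39). Both HOMO libraries were also above all WT libraries for Dnmt3a (0.24 ± 0.14, adjusted p = 0.501), Dnmt3b (0.20 ± 0.21, adjusted p = 0.719) and Tet3 (0.21 ± 0.13, adjusted p = 0.529). Dnmt1, Uhrf1, Tet1, Tet2 and Mbd2 overlapped between the genotypes in CB, with changes from -0.43 for Tet1 to -0.06 for Mbd2. The share of all genes without overlap was not counted for any comparison, so such separations only describe the libraries.

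In CC the member with an unadjusted p under 0.05 was Dnmt3a, with both HOMO libraries below all 3 WT libraries and a change of -0.33 ± 0.14 (adjusted p = 0.244). Tet2 was likewise lower in both HOMO libraries than in any WT library (-0.25 ± 0.17, adjusted p = 0.441). The other 7 genes overlapped, with changes from -0.72 for Tet1 to 0.41 for Dnmt3b. In CC too the share of all genes without overlap was not counted. Without WT CC library 3, Dnmt3a passed as lower in HOMO CC (-0.44, adjusted p = 0.0277), in a fit that called 14.8% of all genes. Without WT CC libraries 1 and 2 it was -0.052 (adjusted p = 0.946), without WT numbers 1 and 2 it was -0.027 (adjusted p = 0.915), and with an offset for GC content -0.19 (adjusted p = 0.54).

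The change between fractions differed between the genotypes for 0 of the 9 genes by the test of the difference itself in edgeR, beside 0% of all genes. Without adjustment 2 members and 2.62% of all genes had a p under 0.05, and DESeq2 called 0 members and 0% of all genes. The 2 members were Dnmt3a, whose change was smaller in HOMO by a log2 difference of -0.56 ± 0.20 (unadjusted p = 0.0158, adjusted p = 1), and Tet3, with a difference of -0.42 ± 0.19 (unadjusted p = 0.0476, adjusted p = 1). Without WT CC libraries 1 and 2 the differences were -0.28 for Dnmt3a and -0.17 for Tet3 (adjusted p = 0.941 for both), and without WT numbers 1 and 2 they were -0.28 and 0.05. For Tet2 the difference was 0.01 ± 0.24 (adjusted p = 1). That Tet3 passed in WT and not in HOMO is therefore no shown difference between the genotypes.

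**Figure D5:**
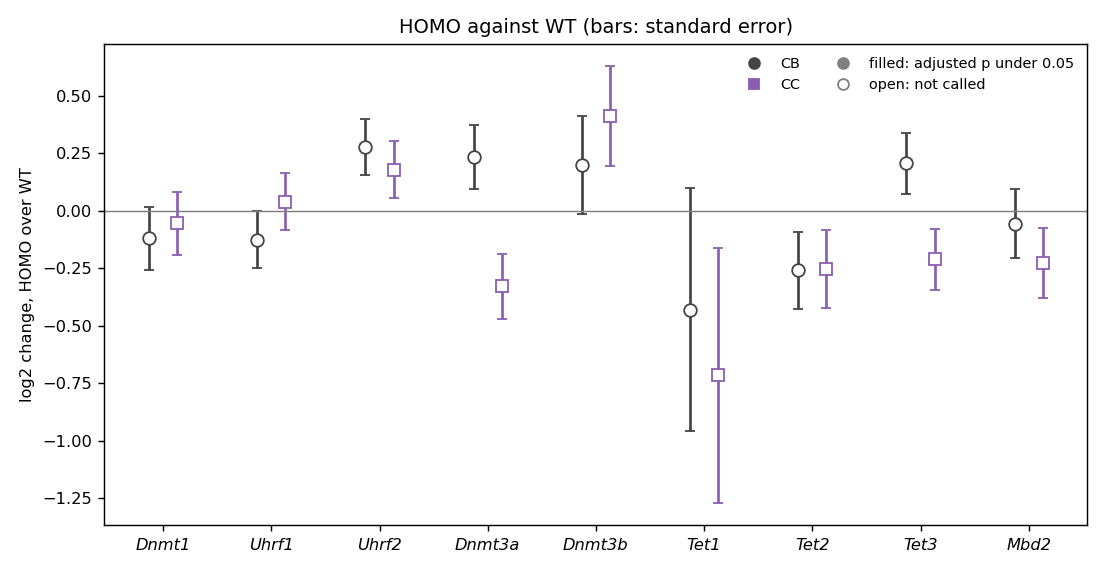
Log2 change of HOMO over WT for the 9 genes in CB (circles) and CC (squares), with standard errors as bars. All symbols are open, since no gene passed the adjusted p threshold of 0.05, and Dnmt3a and Tet3 lie above 0 in CB and below 0 in CC.

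The genotype result depended on the WT libraries numbered 3. Without both of them, 4 members passed in CB, where 30.4% of all genes did: Uhrf2 (0.39) and Tet3 (0.34) as higher in HOMO and Uhrf1 (-0.21) and Dnmt1 (-0.20) as lower. In CC 5 members passed, where 31.3% of all genes did: Dnmt3b (0.62) and Uhrf2 (0.28) as higher and Dnmt3a (-0.42), Mbd2 (-0.32) and Tet3 (-0.29) as lower. The difference of the change between fractions passed for Dnmt3a (-0.66, adjusted p = 0.0115) and Tet3 (-0.62, adjusted p = 0.00131), 2 members, where 8.98% of all genes passed. With the 4 libraries of WT numbers 1 and 2 left out, so that each WT group was 1 library assumed to vary like the others, the calls were other ones: Tet2 was lower in HOMO CB (-0.55, adjusted p = 0.0152) and in HOMO CC (-0.46, adjusted p = 0.0455). The HOMO libraries and WT CB library 3 had negative correlations with GC content; with an offset for GC content edgeR called no member in either fraction, and the Tet3 change in CC was 0.01 in place of -0.21.

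Genes that work with the 9 members were read from 6 lists, by fraction. Of 12 tested genes for removal of methylation and TET partners, 4 were lower and 1 higher in WT CC, beside 12.3% and 11.6% of all genes. Hmces, whose protein binds abasic sites in single-stranded DNA, fell from 486 to 183 CPM (log2 change -1.41 ± 0.10, adjusted p = 1.69e-05) in WT and from 431 to 177 in HOMO (-1.29 ± 0.12, adjusted p = 0.000409). Neil1, a glycosylase of base excision repair, fell from 569 to 243 CPM in WT (-1.23 ± 0.17, adjusted p = 0.000598) and from 404 to 191 in HOMO (-1.08 ± 0.20, adjusted p = 0.011). Idh2, a mitochondrial enzyme that makes the oxoglutarate TET enzymes need, fell by 0.72 on the log2 scale in WT and by 0.59 in HOMO (adjusted p = 0.00203 and 0.0437). Tdg, the glycosylase that excises oxidized methylcytosine, was at 43.6 CPM in WT CB and 45.2 in WT CC (log2 change 0.05, adjusted p = 0.799). The others that passed in WT, outside the rule for naming genes, were Gadd45b (-0.49, adjusted p = 0.0183) and Dcaf1 (0.30, adjusted p = 0.05, just under the threshold). In HOMO 3 of the 12 passed, all as lower in CC, where 2.98% of all genes were called lower. They were the Hmces, Neil1 and Idh2 just given.

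Among 9 other genes, listed as readers of methylated DNA or relatives of readers, 2 passed in WT CC, both lower. Over all genes 12.3% were called lower there. Mbd4, a reader that also removes mispaired thymine, fell from 309 to 196 CPM in WT (-0.66 ± 0.10, adjusted p = 0.00127) and from 352 to 236 in HOMO (-0.58 ± 0.12, adjusted p = 0.0205). Zbtb33, which encodes the reader Kaiso, fell from 55.5 to 29.3 CPM in WT (-0.93 ± 0.17, adjusted p = 0.00312). Of 11 genes of the NuRD complex, which MBD2 joins, 2 were lower in WT CC, a share near the 12.3% of all genes. They were the histone chaperone subunits Rbbp4 (-0.61 ± 0.11, adjusted p = 0.00265) and Rbbp7 (-0.39 ± 0.12, adjusted p = 0.0337). In HOMO their changes were -0.30 (adjusted p = 0.239) and -0.01 (adjusted p = 0.993).

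Of the 11 writers and partners listed, 8 were tested. Pcna, the replication clamp that binds DNMT1, was the 1 that passed, as lower in WT CC (-0.44 ± 0.13, adjusted p = 0.0288). That is about the share of all genes called lower there, 12.3%. Hells, a remodeller needed for methylation of repeats, was at 234 CPM in WT CB and 203 in WT CC (-0.21, adjusted p = 0.236). In the methyl donor cycle 3 of 7 genes passed in WT CC, where 11.6% of all genes were called higher and 12.3% lower. Ahcyl2 (0.77 ± 0.16, adjusted p = 0.00644) and Mtr, methionine synthase (0.46 ± 0.09, adjusted p = 0.00479), rose. Mat2b, a regulatory subunit of S-adenosylmethionine synthesis, fell (-0.34 ± 0.10, adjusted p = 0.0256). Of 6 proteins with a CXXC domain that binds unmethylated CpG, Fbxl19 rose in both genotypes (1.02 ± 0.18 and 0.85 ± 0.22, adjusted p = 0.00246 and 0.0459). Kdm2b, of a variant Polycomb complex, rose in WT (0.48 ± 0.09, adjusted p = 0.00292). Over all genes 11.6% were called higher in WT CC and 2.46% in HOMO CC. Between genotypes in CC, the smallest p-value over the 6 lists was that of Mbd6, which did not pass (log2 change -0.58, unadjusted p = 0.000754, adjusted p = 0.103).

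The genes whose pattern over the 10 libraries was most like that of a member were found by the root mean square difference of log2 CPM after removal of each gene's mean, among about 8365 genes of moderate or high level. For Dnmt1 they were Ccnd3 (0.03), Smarcc2 (0.04) and Ankrd40 (0.05), and for Uhrf1 Trim28, Psme3 and Arrdc1, each within 0.05. For Uhrf2 they were Nipa2, Ddx3x and Eea1 (0.05 to 0.06). For the other members they were Trappc9, Kmt2d and Atrnl1 for Tet3 (0.06 to 0.07), Smarca4, Trp53i11 and Mprip for Mbd2 (0.11 to 0.13), Plpp1, Tnfrsf14 and Mettl13 for Dnmt3a (0.14 to 0.16), Ahdc1, Jarid2 and Rapgef4 for Tet2 (0.14 to 0.15), Ppa1, Heatr1 and Zfp275 for Dnmt3b (0.102 to 0.125) and Pld3, Psap and Slc37a2 for Tet1 (0.32 to 0.35). A gene that varies less over the libraries has closer neighbours by this measure: the standard deviation of log2 CPM was 0.13 for Uhrf1, 0.62 for Tet1 and 0.73 for Dnmt3a. Among the members themselves, Dnmt3a and Tet2 differed by 0.33.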

How the data were processed

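Bulk RNA-seq of 10 libraries was analysed from a table of whole-number read counts per gene that the authors deposited, not normalized, with a gene length as a further column. Tools listed in the submitters' processing notes are STAR, featureCounts of Subread, FastQC and R 4.2.1, with the mm10 build and without order or settings. The strand setting is not given in the sources used here. Overlapping and antisense genes therefore have uncertain counts. All 54673 identifiers found in GENCODE M21 had the position given there.

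Groups came from sample titles. HOMO columns are numbered 2 and 3 but HOMO titles 1 and 2, so these columns were assigned to groups only. Libraries of a group differed by more than sampling noise (chi-square per degree of freedom 4.14 to 80.7). The deviations of WT libraries from their group mean were correlated across fractions over 8910 genes: r was 0.384, 0.424 and 0.426 for pairs with the same number and -0.445 to 0.282 for the rest, so the WT numbers were taken to pair libraries, from the data and not from a label.

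Genes were filtered with filterByExpr (minimum count 10, minimum total 15), which left 16596. Libraries were scaled by TMM, and 4 group means were fitted to all 10 libraries with edgeR 4.0.16 in R 4.3.3 (robust quasi-likelihood F-test, Benjamini-Hochberg over all genes, threshold 0.05; common biological coefficient of variation 23.1%). Each SE was derived from the F statistic. limma 3.58.1 (voom) and DESeq2 1.42.0 served in alternatives, as did an offset for GC content, known for 99.9% of tested genes. The steps were also run on simulated counts, drawn independently for each library, with an outcome not reported here. That simulation held no effect of the WT number, no GC trend and no other cells, so it does not bear on them. Promoter windows are RefSeq sequences on GRCm38.p6, for 8 members. Where a gene had several starts, the window with the longest stretch free of exons was used, and for Tet1 and Tet3 fewer than 250 bases were left.

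All 9 members and Pbrm1 are named. From each list of other pathway genes, up to 3 with the smallest p that passed are named per comparison, or else 1, together with those said to be chosen after their values were seen, and Tdg and Hells, also chosen then. The members and lists were chosen with earlier results of these data known. For 1 gene named by the rule, no values are reported here. No list was tested.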

Additional observations from a re-analysis of the deposited data

How the results depend on the processing

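Up to 22 alternatives were run for each comparison: upper-quartile scaling, DESeq2, other filters on low counts, only the groups compared, WT number as a replicate block, a GC content offset, and fits without libraries. The fit without WT CC libraries 1 and 2 was chosen after seeing the data. Tet1 has no value under the stricter filter, which removed it. Where a group was left with 1 library, it was assumed to vary like the others. With WT number 3 left out 3 members were called lower in WT CC, 5 higher and 2 lower in HOMO CC, 2 higher and 2 lower in CB of HOMO against WT, 2 higher and 3 lower in CC, and 2 lower in the difference of changes. That fit called 23.9% of all genes lower in WT CC, and 10% higher and 13% lower in HOMO CC. With WT numbers 1 and 2 left out the counts were 5 higher and 3 lower in HOMO CC, and 1 lower in CB of HOMO against WT and 1 in CC, beside 12.6%, 14.4%, 2.01% and 1.81% of all genes. With only the HOMO libraries, 5 were higher and 2 lower in CC, beside 14.5% and 15.9% of all genes. As a fixed replicate block, the WT number gave 3 members lower in WT CC and 2 lower in HOMO CC, and as a random replicate block 2 lower in WT CC (17.5% of all genes). The GC content offset gave 2 lower there (13.6%), with the block as well (17%). The block changed no other call. Leaving out 1 library at a time, members lower in WT CC numbered 1 to 2 (2 without WT CB library 3, beside 16.8% of all genes), members higher in HOMO CC 0 to 2 and members lower in HOMO against WT in CC 0 to 1.

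Changes of sign met only values that had not passed as reported, and none passed after it. With the GC content offset, alone and then with the random block, the log2 change of CC over CB in WT was -0.074 and -0.066 for Uhrf1. HOMO over WT in CB it was 0.034 and 0.039 for Dnmt1, 0.027 and 0.033 for Uhrf1 and 0.098 and 0.107 for Mbd2, and in CC 0.103 and 0.107 for Dnmt1 and 0.012 and 0.012 for Tet3. With no low-count filter Uhrf1 was -0.001 in WT, and with upper-quartile scaling the Tet2 difference of changes was 0. Without WT number 3 Uhrf1 was -0.037 in WT and the Tet2 difference -0.008. Without WT numbers 1 and 2, HOMO over WT in CB was 0.112 for Dnmt1, 0.115 for Uhrf1 and 0.196 for Mbd2, in CC 0.179 for Dnmt1, 0.055 for Tet3 and 0.082 for Mbd2, and the difference of changes was -0.014 for Dnmt3b, 0.177 for Tet1 and 0.051 for Tet3. Without WT CC libraries 1 and 2, Uhrf1 was -0.086 in WT, HOMO over WT in CC was 0.155 for Dnmt1, 0.031 for Tet3 and 0.056 for Mbd2, and the difference was -0.092 for Dnmt3b, 0.015 for Tet1, -0.223 for Tet2 and 0.119 for Mbd2. Leaving out 1 library at a time gave ranges that cross 0: Uhrf1 in WT from -0.09 to 0.096, Tet1 in HOMO from -0.38 to 0.977, HOMO over WT for Mbd2 in CB from -0.176 to 0.01, for Dnmt1 in CC from -0.14 to 0.019 and for Uhrf1 in CC from -0.005 to 0.069, and differences for Dnmt1 from -0.018 to 0.177, for Tet1 from -1.146 to 0.212 and for Tet2 from -0.147 to 0.157. The cause of these changes was not tested. Groups of 2 and 3 libraries, and 6 to 69 counts for Tet1, limit what could be detected.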
